A study of Homo sapiens with 7 samples.

Results

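The genes described here encode the nuclear RNA exosome and the factors that bring RNA to it. They are 10 genes taken by symbol from a fixed list (EXOSC3, EXOSC7, EXOSC9, EXOSC10, DIS3, MPHOSPH6, SKIV2L2, ZCCHC8, RBM7 and ZFC3H1), out of 16044 genes with at least 1 sense-strand poly(A) site in the deposited tables. The measurement was 3′READS, a deep sequencing method that reads the 3′ end of each poly(A)+ RNA, in HEK293 cells, an established human embryonic kidney line. Each of 7 libraries came from cells transfected with siRNAs. The first batch, made with 3′READS, held 1 library each of siCtrl (control siRNA), siStar-PAP (knockdown, KD, of TUT1), siPAPα (KD of PAPOLA) and siPAPγ (KD of PAPOLG). The KD of both canonical enzymes, siPAPα+γ, was 1 library made with 3′READS, deposited in a table that repeats the siCtrl library of the first batch. The second batch, made with the 3′READS+ protocol, held siCtrl and siStar-PAP, with 1 library each. Nothing in the labels says which batch the double KD library was made in. The 4 KD libraries outside the second batch were therefore all set against a single siCtrl library, so their values are given side by side and are not independent of each other. The time after transfection is not given in the sources used here.

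The exosome is a ring of subunits with a cap of RNA-binding proteins, and it degrades or trims RNA from the 3′ end. The ring itself has no catalytic activity in human cells; the work is done by DIS3, a processive exonuclease that is also an endonuclease, and by EXOSC10, a distributive exonuclease of the nucleus. EXOSC3 is a cap subunit, EXOSC7 and EXOSC9 are ring subunits related to RNase PH, and MPHOSPH6 is a nuclear cofactor that helps to hold the helicase on the core. That helicase is SKIV2L2 (also called MTR4 or MTREX), which unwinds RNA and threads it into the ring. ZCCHC8, a zinc-finger scaffold, and RBM7, an RNA-binding protein, form the NEXT complex with SKIV2L2 and pass on short nuclear RNAs such as promoter upstream transcripts. ZFC3H1 is the scaffold of the PAXT connection, which joins SKIV2L2 to the nuclear poly(A)-binding protein PABPN1 for RNAs with longer tails. The question asked of these data was how much poly(A)+ RNA each gene yielded after KD of a nuclear poly(A) polymerase (PAP), and at which poly(A) site (PAS) it ended.

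The sequences on which the results turn are the ends of the transcripts themselves. Each line gives the last 30 nt of the RNA-strand sequence up to the deposited PAS position, read 5′ to 3′ from the GRCh37 (hg19) genome, and capitals mark the poly(A) signal hexamer found on the sense strand within 40 nt before the site. These sites were chosen because their share of the gene's reads differed between libraries, or because a gene has only this site.
EXOSC3 proximal PAS, chr9:37780450-37780479, minus strand, 226 nt past the stop codon: cggtacAATAAAgtttactaaaaaacagta.
EXOSC3 distal PAS, chr9:37771513-37771542, minus strand, 9163 nt past the stop codon: atattttttaAATAAAttcaattaaattaa.
DIS3 proximal PAS, chr13:73333179-73333208, minus strand, 754 nt past the stop codon: taaaaaacagattaattagtggcttttaaa.
DIS3 distal PAS, chr13:73333092-73333121, minus strand, 841 nt past the stop codon: aacagattaaaataagtattattAATAAAa.
DIS3 distal PAS as the batch 1 table lists it, chr13:73333074-73333103, minus strand, 859 nt past the stop codon: ttattAATAAAatttggtgtgccagactga.
EXOSC9 proximal PAS, chr4:122738035-122738064, plus strand, 53 nt past the stop codon: atataactATTAAAagggatatttattcca.
EXOSC9 distal PAS, chr4:122738147-122738176, plus strand, 165 nt past the stop codon: gtgctttaaaatAATAAAccttctggagca.
MPHOSPH6 first PAS, chr16:82181994-82182023, minus strand, 342 nt past the stop codon: gacttaCATAAActactgccaatgtttaaa.
MPHOSPH6 PAS further down, chr16:82181767-82181796, minus strand, 569 nt past the stop codon: tgctctgtAATAAAaatctactttcacata.
MPHOSPH6 far PAS, chr16:82164837-82164866, minus strand, 17499 nt past the stop codon: tatggtgtaAGTAAAgggctgagattcctg.
SKIV2L2 proximal PAS, chr5:54720779-54720808, plus strand, 208 nt past the stop codon: tttttAATAAAaatgtatacaggtggggca.
SKIV2L2 distal PAS, chr5:54721378-54721407, plus strand, 807 nt past the stop codon: tgccaatactgAATAAAagagttatttcta.
EXOSC7 single PAS, chr3:45052934-45052963, plus strand: acatgtaaaATTAAAggctattttctggtc.
ZCCHC8 main PAS, chr12:122957445-122957474, minus strand: acagaggtttAATAAAttagttttcatata.

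Both SKIV2L2 sites and both EXOSC3 sites carry AATAAA, so in these genes the proximal and the distal end have the same hexamer. In EXOSC9 and MPHOSPH6 the sites differ in their hexamer: the EXOSC9 proximal site has ATTAAA and its distal site AATAAA, and the sites of MPHOSPH6 differ too, with CATAAA at the first, AATAAA at the middle one and AGTAAA at the far one. At the DIS3 proximal site AATAAA starts 32 nt before the site, so it runs across the left edge of the 30 nt shown and is not marked. The DIS3 distal positions share 1 AATAAA, which starts 7 nt before 73333092 and 25 nt before 73333074. They hold the same 27 siCtrl reads in the double KD and the batch 1 table, so they are 1 cluster listed at different positions. Among the 36 PASs of the 10 genes in the last exon or beyond it that held at least 5% of the gene's reads in any library or passed a test, 19 (52.8%) had AATAAA, 5 had ATTAAA, 6 had 1 of 10 other single-base variants and 6 had none. Over all 50258 last-exon PASs of the tables, AATAAA stood at 44.6%, ATTAAA at 15.3%, a variant at 21.3% and none of them at 18.8%. ATA, searched on the sense strand from 100 to 41 nt before the site, was present in 26 of the 36 (72.2%) and in 59.8% of all last-exon PASs. The 36 include 3 pairs of such neighbouring positions, 1 in DIS3 and 2 in EXOSC3, counted separately. These shares describe letters in a window and were not tested.

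The EXOSC3 distal site and the MPHOSPH6 far site lie outside the usual 3′UTR of the gene. The EXOSC3 site is inside the span of longer annotated EXOSC3 transcripts (gene span in GENCODE 44 lifted to GRCh37: chr9:37759231-37832114). It overlaps another annotated gene on the same strand and faces TRMT10B on the other strand. The MPHOSPH6 site lies beyond the annotated gene (chr16:82181403-82203829), within HSD17B2-AS1 on the same strand. The tables list both sites under the exosome gene and the assignment is theirs. SKIV2L2 spans chr5:54603817-54721407 and its distal PAS is the annotated end of the gene. The EXOSC10 sites 11125857 and 11123626 also lie beyond the annotated gene, by 818 and 3049 nt, and the ZFC3H1 site 72000193 by 3186 nt.

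The tables held between 2362875 and 16245257 PAS-supporting (PASS) reads per library, with the fewest in the second batch (2776382 for siCtrl and 2362875 for siStar-PAP) and 8098799 in the first-batch siCtrl. Levels are given as RPM, the reads of a gene for every 1000000 PASS reads of the whole library. The reads in the tables, sense and antisense, made up 55% to 70.9% of those PASS reads. Because reads come from RNA ends only, no length correction was made. The libraries were amplified by PCR, so reads are not counts of RNA molecules, and the order of the genes differed between the batches. Intervals in parentheses are 95% Poisson intervals for RPM and 95% Clopper-Pearson intervals for shares, and cover counting error only. In bulk cells such as these, fewer cells with a transcript and less RNA per cell cannot be told apart. Of 6 HEK293 markers 5 had reads in every library, and of 6 markers of other cell types 5 were at 0 in every library, with a summed level of at most 0.270 RPM. The targeted gene was low where its label says so for siStar-PAP in the first batch (TUT1 83 reads in siCtrl and 2 in the KD, 7.26 and 0.121 RPM) and for PAPOLA in siPAPα (71 and 12 reads) and siPAPα+γ (8 reads). In the second batch TUT1 had 6 reads in siCtrl and 4 in siStar-PAP, too few to check the label. PAPOLG had 5 reads in siCtrl and 15 in the library labelled siPAPγ, 0.438 (0.142 to 1.02) and 1.01 (0.567 to 1.67) RPM. The double KD library had 6. That label could therefore not be checked by the reads of its target either. At the protein level, the study reports KD of each single PAP, PAPγ included, by immunoblot.

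In the siCtrl library of the first batch, SKIV2L2 stood far above the other genes of the list at 184 RPM (176 to 192). EXOSC7 with 39.4 RPM (35.8 to 43.2) and MPHOSPH6 with 39.2 (35.7 to 43.0) came next and did not differ beyond counting error. ZCCHC8, EXOSC10 and EXOSC3 formed the next group, with 19.2, 17.0 and 16.5 RPM and overlapping intervals. DIS3 at 7.18 (5.71 to 8.91) and EXOSC9 at 5.43 (4.16 to 6.96) overlapped too. RBM7 (1.05 RPM, 12 reads) and ZFC3H1 (0.613 RPM, 7 reads) were at the bottom. Among the listed genes, the factors that bring RNA to the exosome thus spanned the whole range. The helicase was at the top, RBM7 and ZFC3H1 were at the bottom, and the listed core subunits lay between them. This order does not hold for the core as a whole. Of the core subunits outside the list, EXOSC4 had 307 RPM in the same library, above SKIV2L2, and EXOSC2 had 139 RPM, below it.

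The order in the second batch was not the same. There EXOSC7 (38.8 RPM), EXOSC10 (37.6), EXOSC3 (32.9) and MPHOSPH6 (29.5) led with overlapping neighbours, and SKIV2L2 was at 11.9 RPM (9.07 to 15.3), beside ZCCHC8 (9.90) and DIS3 (9.51). EXOSC9 was at 2.38 RPM and RBM7 had no reads in siCtrl, which allows up to 0.594 RPM at 3 reads; ZFC3H1 was not listed in that table. SKIV2L2 therefore read 15.5-fold lower in the second-batch siCtrl than in the first (log2 difference -3.95, against a median of -0.39 over 9570 genes), a place at which 3.77% of those genes lay as low or lower. In siStar-PAP it was 9.24-fold lower (-3.21, against a median of -0.19 over 9072 genes). In siCtrl the 7 other genes with enough reads differed between the batches by log2 values from -1.19 (EXOSC9) to 1.15 (EXOSC10). Protocol and batch coincide here and cannot be told apart.

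**Figure D1:**
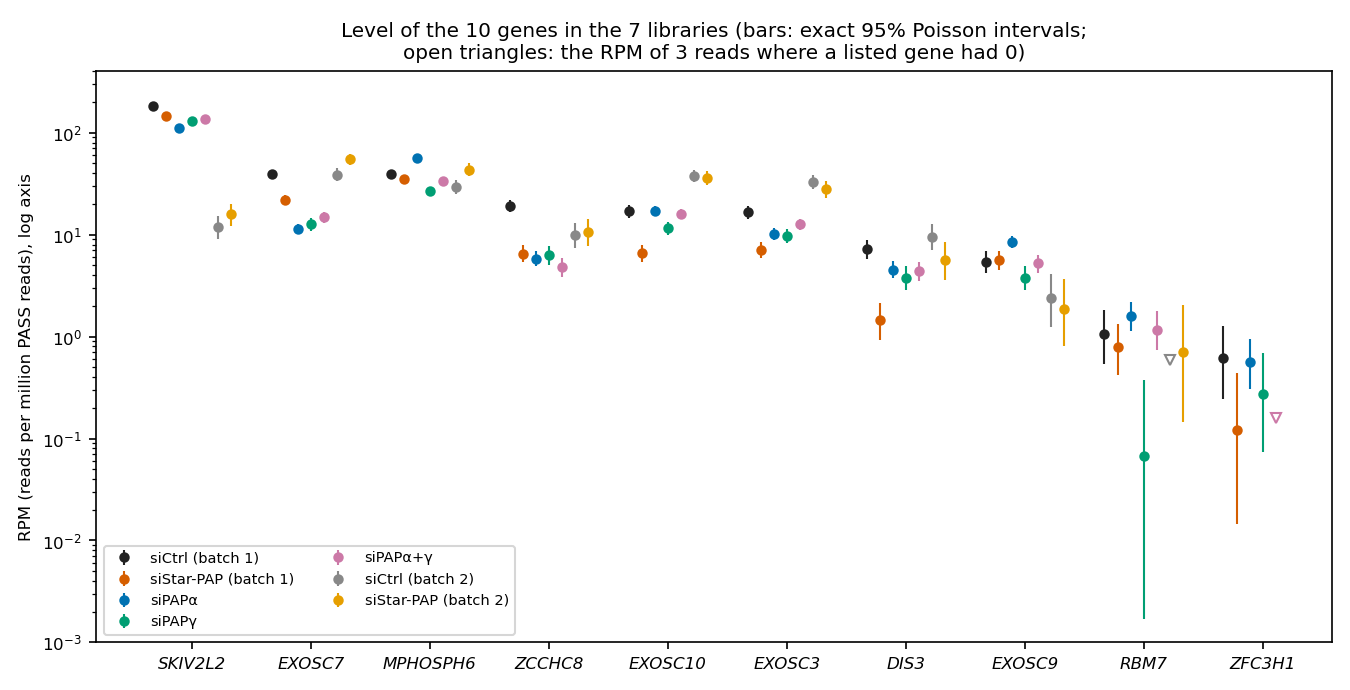
Level of each of the 10 genes in each of the 7 libraries, as RPM on a log axis with 95% Poisson intervals; triangles mark listed genes with 0 reads at the level of 3 reads. SKIV2L2 sat between 110.1 and 184 RPM in the 5 libraries of the first batch and the double KD, and at 11.9 and 15.8 RPM in the second batch.

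At the gene level, the exosome genes were often lower in a KD library than in its siCtrl, but in no fit did one of them pass the test with an adjusted p below 0.05. In the first-batch siStar-PAP library, 4 of 8 genes with more than 50 reads in the pair (EXOSC3, EXOSC10, DIS3 and ZCCHC8) were more than 2-fold lower in RPM than in siCtrl and 0 were more than 2-fold higher, where 26.2% and 4.44% of all genes were. All genes together had a median log2 ratio of -0.45 in that pair, and relative to it 2 genes, DIS3 and ZCCHC8, remained past 2-fold down, against 13.4% of all genes. In siPAPα, EXOSC7 and ZCCHC8 were past 2-fold down and 0 up among 9 genes, with backgrounds of 22.1% and 8.5%. The same pair of genes, out of 8, was past 2-fold down in the library labelled siPAPγ (background 20.7% down and 5.67% up, 0 members up) and in siPAPα+γ (26.5% down and 6.98% up, 0 members up). Relative to the median of all genes (-0.26, -0.33 and -0.38 in log2) EXOSC7 and ZCCHC8 were still past 2-fold down in these 3 libraries, against 15.3%, 12.1% and 16.1% of all genes. In the second batch 0 of 7 genes were past 2-fold in either direction, against 11.7% of all genes down, 3.55% up, and 8.62% down relative to the median of -0.16. The share of members past 2-fold down was above its background in the first-batch siStar-PAP library and close to it in siPAPα, the library labelled siPAPγ and siPAPα+γ, as far as 8 or 9 genes can show.

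The median log2 ratio over the members with enough reads was -1.04 in the first-batch siStar-PAP library, -0.66 in siPAPα, -0.66 in the library labelled siPAPγ and -0.44 in siPAPα+γ, and 0.10 in the second-batch siStar-PAP library. Set against the median of all genes in the same library, 5 of 8, 5 of 9, 8 of 8, 5 of 8 and 2 of 7 members were below it. These ratios rest on single libraries and have no replicate check.

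**Figure D2:**
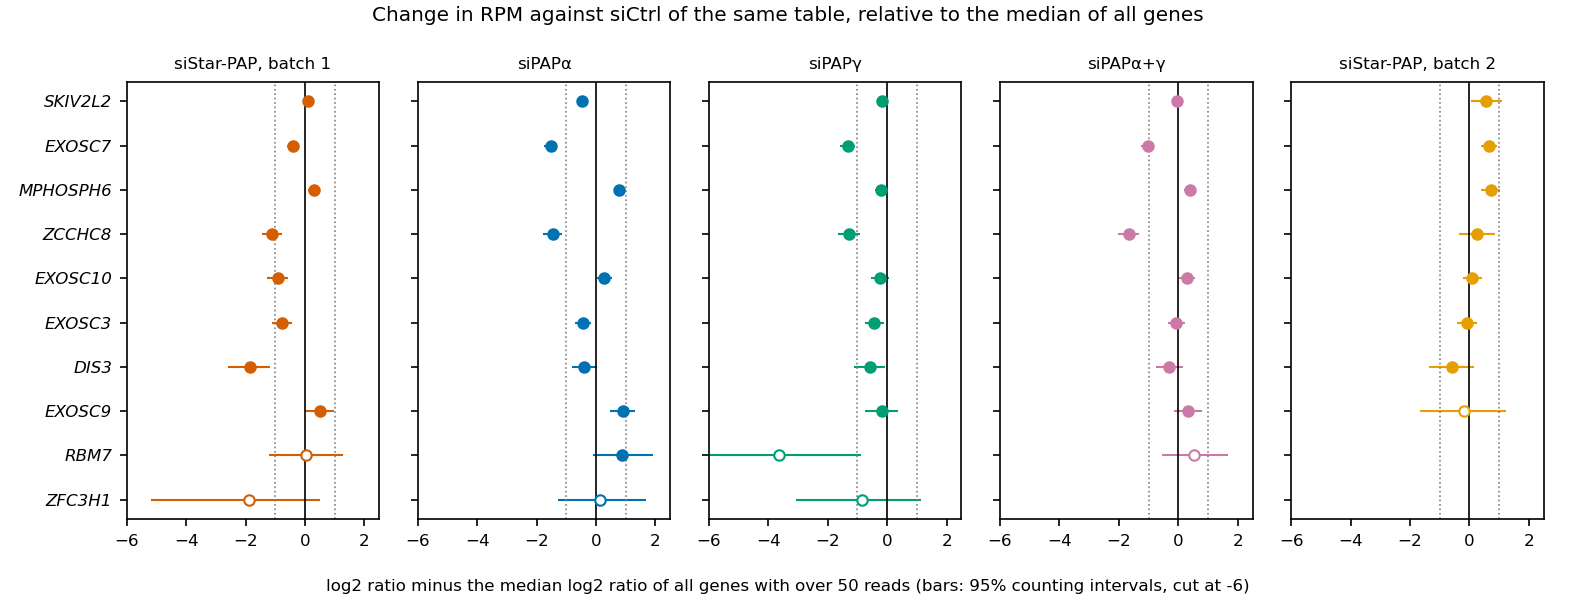
Log2 ratio of KD to siCtrl RPM minus the median over all genes, for each gene in the 5 comparisons, with 95% counting intervals; open symbols mark genes with 50 reads or fewer in the pair. Among the filled symbols, DIS3 (-1.86) and ZCCHC8 (-1.11) were lowest in siStar-PAP of the first batch, EXOSC7 and ZCCHC8 were lowest in the 3 libraries with KD of canonical PAPs, and 5 of 7 genes were above 0 in the second batch.

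Replicates exist for siCtrl and siStar-PAP only. With edgeR's quasi-likelihood test and Benjamini-Hochberg adjustment over all genes, 0 of 8 members passed in siStar-PAP over both batches (2.31% of all genes did), and 1 (DIS3) had an unadjusted p below 0.05, against 15% of all genes. In siPAPα it was 0 of 9 (background 5.73%) and 2 (EXOSC7 and MPHOSPH6) at the unadjusted level (16.5%). For the library labelled siPAPγ it was 0 of 9 (2.37%) and 1 (EXOSC7, 11.7%), and for siPAPα+γ 0 of 9 (7.1%) and 1 (ZCCHC8, 18.9%). DESeq2 also called 0 members in each fit, with 0, 1, 0 and 0 at an unadjusted p below 0.05. The labels do not say whether the libraries came from separate cultures, so these p-values measure the spread between these libraries, which may be technical. A KD with a single library borrows the spread of siCtrl and siStar-PAP, with 1 residual degree of freedom. The edgeR fit also pools this spread over all genes. Its p-values therefore rest mainly on a spread shared between genes, and little on that of the gene itself.

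Of the catalytic subunits, DIS3 had the lowest level relative to its control after siStar-PAP in both batches, among members with more than 50 reads in the pair. It had 82 reads (7.18 RPM) in siCtrl and 24 (1.45 RPM, 0.929 to 2.16) in siStar-PAP of the first batch, 20.2% of the control. In siPAPα, the library labelled siPAPγ and siPAPα+γ it had 4.54, 3.79 and 4.36 RPM. Its second-batch level was 9.51 RPM (7.01 to 12.6) in siCtrl and 5.65 (3.62 to 8.40) in siStar-PAP, 59.4% of the control. All the KD values were below the siCtrl value of their own table, and the intervals of siCtrl and siStar-PAP overlapped in the second batch only. Over both batches the log2 change was -1.19 (SE 0.56, adjusted p = 0.319 by edgeR's quasi-likelihood test). The level was thus lower in both batches, but the change did not pass the test. The 7-library fit scales libraries by TMM and, through its batch block, draws on both batches for the siCtrl level. In it the DIS3 changes in the 3 other KDs were -0.011, -0.27 and 0.063 (adjusted p = 1.00, 0.972 and 0.988 by edgeR). Unlike the RPM, the fit thus gave no lower DIS3 level in siPAPα+γ. With PASS totals in place of TMM, and likewise without the batch block, the DIS3 change in siPAPα+γ was negative, as given in the last section. How much each contributes to the difference was not tested.

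EXOSC10, the other nuclease, had 17.0 RPM in siCtrl and 6.59 (5.41 to 7.95) in siStar-PAP of the first batch, 38.8% of the control. It had 17.2, 11.5 and 16.1 RPM in siPAPα, the library labelled siPAPγ and siPAPα+γ. The second-batch values were 37.6 RPM (32.5 to 43.4) in siCtrl and 36.0 (30.5 to 42.2) in siStar-PAP, which overlap. The lower value after siStar-PAP was therefore seen in 1 of 2 batches, and over both the log2 change was -0.36 (SE 0.37, adjusted p = 0.716 by edgeR).

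The share of reads at the individual PASs of a gene was compared between each KD library and its siCtrl by Fisher's exact test, two-sided and adjusted over all PASs tested. This compares the libraries and not the conditions. Among PASs of the exosome genes, 7 of 25 tested (in 4 of 7 genes) changed share in siStar-PAP of the first batch, where 40.6% of all PASs did. In siPAPα it was 11 of 24 (6 genes) against 42.3%, in the library labelled siPAPγ 6 of 24 (3 genes) against 29.4%, and in siPAPα+γ 12 of 25 (7 genes) against 39.1%. The second batch had 1 of 14 changed, against 8.61%. The shares of member PASs that changed, 28%, 45.8%, 25%, 48% and 7.14%, lay on both sides of those backgrounds, and the counts are no result about the set.

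For the 2 PASs with most reads in the last exon or beyond it, the relative expression difference (RED) was the log2 ratio of distal to proximal reads in the KD minus the same in siCtrl. In siStar-PAP of the first batch, the distal site rose relative to the proximal one in 1 of 6 genes (EXOSC3) and fell in 0, against 22.9% and 21.1% of all genes. In siPAPα it rose in 4 of 7 (EXOSC3, MPHOSPH6, SKIV2L2 and ZCCHC8) and fell in 1 (EXOSC9), against 29% and 19.9%. In the library labelled siPAPγ it rose in 2 of 7 (EXOSC3 and SKIV2L2) and fell in 0, against 19.4% and 17.9%. In siPAPα+γ it rose in 3 of 7 (EXOSC3, SKIV2L2 and ZCCHC8) and fell in 2 (DIS3 and EXOSC9), against 30.9% and 18.8%. The pairs of the second batch gave 0 of 5 changed, against 6.09% up and 5.63% down. The calls of 2 genes depend on the choice of pair. With the most proximal against the most distal PAS, MPHOSPH6, whose far PAS is then the distal one, fell in siStar-PAP, siPAPα and the library labelled siPAPγ (RED -2.48, -4.14 and -2.14, Fisher's exact test, adjusted p = 5.67e-11, 5.90e-25 and 1.50e-07), against its rise in siPAPα above. EXOSC3, whose most proximal PAS 37780575 had 2 reads in siCtrl, then passed in none of the 4 KD libraries (adjusted p = 0.424, 0.126, 0.644 and 0.133).

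**Figure D3:**
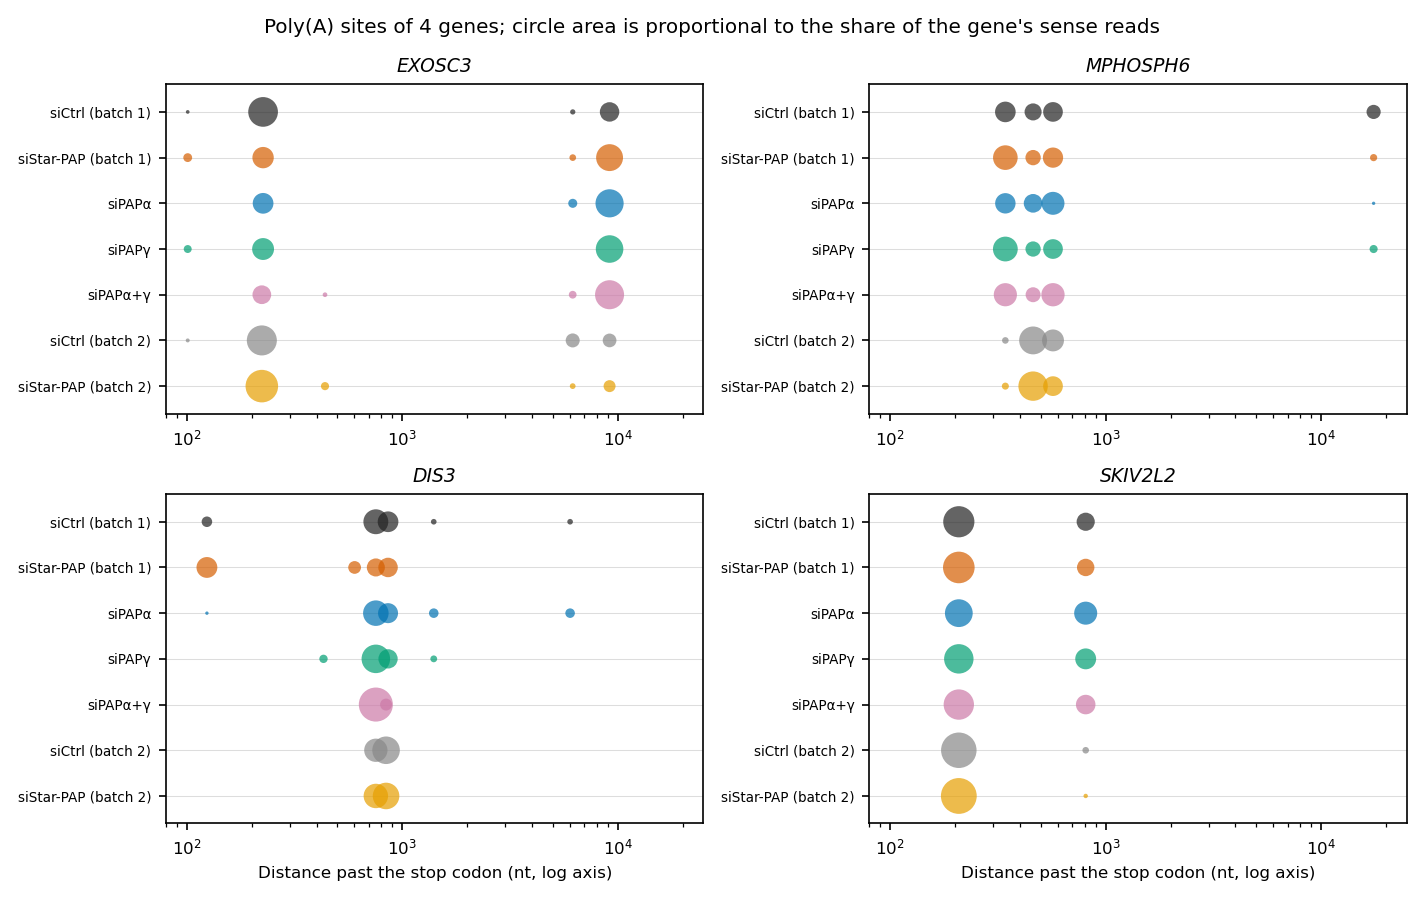
Poly(A) sites of EXOSC3, MPHOSPH6, DIS3 and SKIV2L2 by their distance past the stop codon (nt, log axis), 1 row per library; the area of a circle is the share of the gene's sense reads at that site. In EXOSC3 the circle at 9163 nt is small in siCtrl (29.1%) and larger in siPAPα (60.8%), and in MPHOSPH6 the site at 17499 nt holds 15.4% in siCtrl and 0.854% in siPAPα.

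EXOSC3, the cap subunit, ended more often at its distal site in all 4 KD libraries set against the first-batch siCtrl. Its distal PAS held 29.1% (22.7 to 36.1) of the gene's reads in siCtrl. It held 55.6% (46.1 to 64.7) in siStar-PAP, 60.8% (54.5 to 66.8) in siPAPα, 58.3% (49.8 to 66.5) in the library labelled siPAPγ and 64.7% (58.3 to 70.8) in siPAPα+γ. Fisher's exact test gave adjusted p = 6.76e-05, 7.23e-10, 2.15e-06 and 4.27e-13, and the share in each of the 4 KD libraries lay above the whole siCtrl interval. RED was 1.88, 2.10, 1.88 and 2.49. The proximal site had 11.2 RPM in siCtrl and 2.48, 3.35, 3.58 and 3.41 RPM in the 4 KD libraries in the same order, while the distal site had 4.81 RPM in siCtrl and 3.93, 6.18, 5.68 and 8.19 RPM. Fewer reads thus ended 226 nt past the stop codon, while the level at the site 8937 nt further ranged from 3.93 to 8.19 RPM around its siCtrl value.

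The second batch did not show this move. There the distal EXOSC3 site held 14.5% in siCtrl and 11.0% in siStar-PAP (adjusted p = 0.767), RED was -0.62 (adjusted p = 0.55) and the proximal site had 22.8 and 22.6 RPM. The test of each PAS there gave a change only at 37774497, between the 2 sites, from 15.1% to 2.54% of the reads (Fisher's exact test, adjusted p = 0.00957). For the gene as a whole, EXOSC3 had 16.5 RPM in siCtrl of the first batch, 7.07 in siStar-PAP, 10.2 in siPAPα, 9.73 in the library labelled siPAPγ and 12.7 in siPAPα+γ. Its second-batch levels were 32.9 and 27.8 RPM, with overlapping intervals. EXOSC3 was therefore lower in RPM than siCtrl in the 4 KD libraries set against the first-batch siCtrl, and within counting error of it in the second batch. In the edgeR fits, which scale by TMM and block by batch, its log2 change was -0.39 (SE 0.37) over both siStar-PAP batches. It was -0.15 in siPAPα, -0.21 in the library labelled siPAPγ and 0.30 in siPAPα+γ. None of these changes had an adjusted p below 0.691 (edgeR).

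EXOSC7, a ring subunit, has a single listed PAS, so only its level could be compared. It had 39.4 RPM (35.8 to 43.2) in siCtrl and, after KD, 21.9 (19.7 to 24.3) in siStar-PAP, 11.4 (10.1 to 12.8) in siPAPα, 12.6 (10.8 to 14.5) in the library labelled siPAPγ and 14.7 (13.1 to 16.6) in siPAPα+γ. The 3 libraries with KD of a canonical PAP were at 28.9%, 31.9% and 37.4% of siCtrl, lower than siStar-PAP at 55.7%. EXOSC7 went the other way in the second batch, with 38.8 RPM (33.6 to 44.7) in siCtrl and 54.6 (47.8 to 62.1) in siStar-PAP. In the fit of all 7 libraries its log2 change was -1.16 (SE 0.48, adjusted p = 0.153 by edgeR) in siPAPα and -1.02 (SE 0.48, adjusted p = 0.351) in the library labelled siPAPγ. It was -0.66 (SE 0.47, adjusted p = 0.495) in siPAPα+γ and, in the fit of both siStar-PAP batches, 0.17 (SE 0.36, adjusted p = 0.886), so none passed. In siPAPα+γ its log2 ratio with TMM factors was -0.88, no longer past 2-fold.

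EXOSC9, another ring subunit, ended more often at its proximal site in siPAPα and siPAPα+γ. Its distal PAS held 24.2% of 62 reads in siCtrl and, after KD, 14.0% in siStar-PAP, 6.16% in siPAPα, 17.9% in the library labelled siPAPγ and 2.04% in siPAPα+γ. The share fell in siPAPα (adjusted p = 0.000839 by Fisher's exact test) and in siPAPα+γ (adjusted p = 0.000105). In siStar-PAP and in the library labelled siPAPγ the difference did not pass (adjusted p = 0.219 and 0.649). RED was -2.23 in siPAPα and -3.86 in siPAPα+γ (adjusted p = 0.000788 and 9.66e-05). The proximal site rose in share from 75.8% to 90.5% and 92.9% (adjusted p = 0.0138 and 0.0137), and its level was 4.11 RPM (3.02 to 5.47) in siCtrl, 7.61 (6.57 to 8.77) in siPAPα and 4.84 (3.90 to 5.95) in siPAPα+γ. In siStar-PAP a site between them, 122738128, rose from 0 to 12.9% (adjusted p = 0.00728). EXOSC9 as a gene had 5.43, 5.62, 8.41, 3.79 and 5.21 RPM in the 5 libraries, highest in siPAPα at 155% of siCtrl. Only the distal site was listed in the second batch, with 12 and 8 reads, so the sites could not be compared.

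DIS3 changed its PAS use in the double KD. The proximal PAS at 73333179 held 48.8% of the reads in siCtrl of that table and 89.0% (80.2 to 94.9) in siPAPα+γ (Fisher's exact test, adjusted p = 3.15e-07), and the site at 73333092 fell from 33.8% to 11.0% (adjusted p = 0.00282). RED was -2.49 (adjusted p = 0.000151). The batch 1 table lists that distal cluster at 73333074, with 32.9% in siCtrl and, after KD, between 28.6% (the library labelled siPAPγ) and 30.7% (siPAPα). The same proximal site held 47.6% in siCtrl of the batch 1 table, 25.0% in siStar-PAP, 50.0% in siPAPα and 62.5% in the library labelled siPAPγ. The shift was not seen in the siPAPα library, whose value lay within the siCtrl interval. In siStar-PAP, a site closer to the stop codon, 73333809, rose from 8.54% to 33.3% (8 of 24 reads, adjusted p = 0.0169), and 73333332 rose from 0 to 12.5% (3 of 24 reads, adjusted p = 0.0299). In siPAPα and siPAPα+γ 73333809 fell to 0.877% and 0 (adjusted p = 0.0274 and 0.0200). The second-batch shares of 73333179 were 41.7% and 45.8%, with no call.

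EXOSC10 ended almost wholly at 1 site. In siPAPα+γ the share of 11126675 fell from 91.8% to 83.1% (Fisher's exact test, adjusted p = 0.0214). The distal site 11123626 held 6.70% in siCtrl and, after KD, 4.59% in siStar-PAP, 6.71% in siPAPα, 4.71% in the library labelled siPAPγ and 10.9% in siPAPα+γ, with no call. The site at 11125857 had 3 reads in siCtrl and 0, 10, 0 and 18 in the 4 KD libraries. Both 11123626 and 11125857 lie beyond the annotated gene.

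MPHOSPH6, the cofactor that links helicase and core, ended less often at its far site in the 3 KD libraries of the batch 1 table. The far PAS held 15.4% (12.2 to 19.1) of the reads in siCtrl (69 reads). It held 3.95% (23 reads) in siStar-PAP, 0.854% (12 reads) in siPAPα and 5.05% (20 reads) in the library labelled siPAPγ. The fall passed in each (Fisher's exact test, adjusted p = 5.25e-09, 1.32e-30 and 1.40e-05). This PAS is not listed in the tables of the double KD and of the second batch, so it could be compared in 3 libraries only, all against 1 siCtrl library. As it lies beyond the annotated gene, its reads cannot be told apart between MPHOSPH6 and HSD17B2-AS1.

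Among the MPHOSPH6 sites near the stop codon, 82181994 rose from 32.6% to 46.6% in siStar-PAP and to 47.2% in the library labelled siPAPγ (adjusted p = 6.81e-05 and 0.000184 by Fisher's exact test), and was at 32.0% in siPAPα. In siPAPα the site further down, 82181767, rose from 29.7% to 40.4% (adjusted p = 0.000262) and RED was 0.47 (adjusted p = 0.0375). In siPAPα+γ a site between them, 82181876, fell from 26.4% to 17.2% (adjusted p = 0.00332). The shares in siStar-PAP, siPAPα and the library labelled siPAPγ count the far PAS, whose fall by itself raises the share of the nearer sites. In siCtrl as listed without the far PAS, 82181994 held 38.5% and 82181767 held 35.1%. The second batch differed in its main site: 82181994 held only 3.36% and 3.80% and 82181876 held 59.7% and 66.3%. As a gene, MPHOSPH6 had 39.2, 35.2, 56.0, 26.8 and 33.4 RPM in siCtrl, siStar-PAP, siPAPα, the library labelled siPAPγ and siPAPα+γ. The siCtrl value holds the 69 reads of the far PAS, which the double KD table does not list: in that table siCtrl had 379 reads, 33.2 RPM, and siPAPα+γ was at 101% of it. Second-batch MPHOSPH6 stood at 29.5 RPM (25.0 to 34.7) in siCtrl and 43.3 (37.3 to 50.0) in siStar-PAP. It was the member with the highest level relative to siCtrl in siPAPα by the edgeR fit apart from RBM7, with a log2 change of 1.00 (SE 0.45, adjusted p = 0.201).

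SKIV2L2, the helicase, gave the most reads and thus the most precise shares. The distal PAS held 25.3% of 2101 reads in siCtrl and 23.3% of 2412 in siStar-PAP, a difference that did not pass (adjusted p = 0.197 by Fisher's exact test). It held 40.8% in siPAPα, 33.5% in the library labelled siPAPγ and 29.3% in siPAPα+γ (adjusted p = 6.06e-28, 3.50e-07 and 0.00926). RED was -0.16, 1.02, 0.57 and 0.29. The interval in siPAPα+γ (27.6 to 31.1) lay below that in siPAPα (38.9 to 42.6), though this difference was not tested. In levels, the proximal site had 137 RPM in siCtrl and 112, 65.2, 86.4 and 96.1 RPM in siStar-PAP, siPAPα, the library labelled siPAPγ and siPAPα+γ, and the distal site 46.6, 34.0, 44.9, 43.5 and 39.9 RPM. In the 3 libraries with KD of a canonical PAP, then, the proximal level was further below siCtrl than the distal level was. Over the whole gene, the edgeR log2 change was 0.36 (SE 0.34, adjusted p = 0.684) in siStar-PAP and between -0.25 and 0.19 in the other KDs. In the second batch the distal site held 3.33% and 1.49% of the reads (2 and 1 reads), below the batch 1 values in both conditions.

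**Figure D4:**
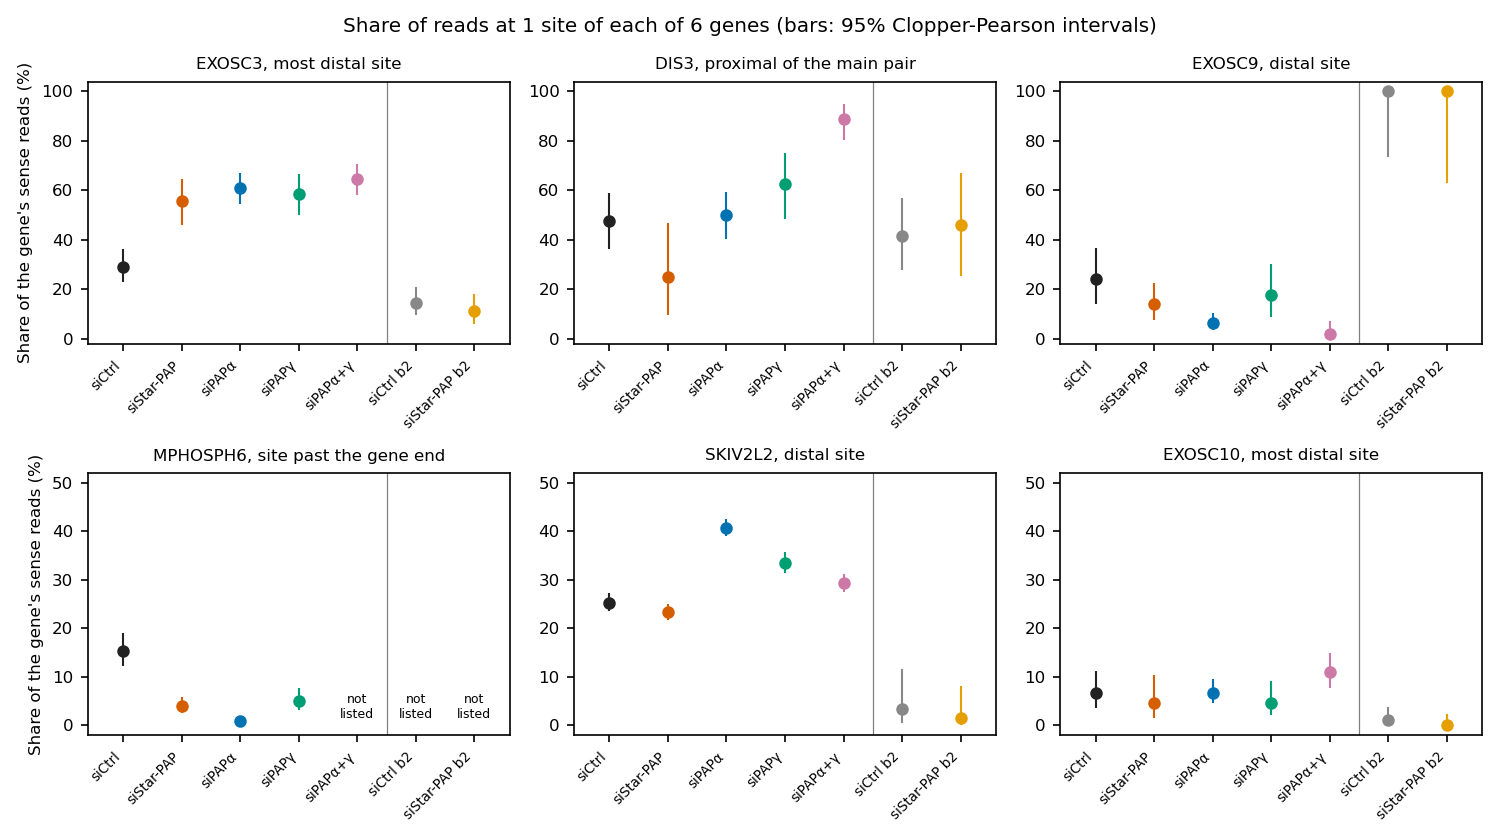
Share of a gene's sense reads at 1 named PAS in each library, for 6 genes, with 95% Clopper-Pearson intervals. EXOSC3 distal rises from 29.1% to between 55.6% and 64.7% in the 4 KD libraries and is 14.5% and 11.0% in the second batch, and SKIV2L2 distal is highest in siPAPα (40.8%); EXOSC9 distal reads 100% in the second batch because no other site is listed there.

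The NEXT scaffold ZCCHC8 was lower in all 4 KD libraries set against the first-batch siCtrl. It had 19.2 RPM (16.7 to 21.9) in siCtrl and, after KD, 6.53 in siStar-PAP, 5.82 in siPAPα, 6.29 in the library labelled siPAPγ and 4.79 in siPAPα+γ, which is 34.0%, 30.4%, 32.8% and 24.1% of siCtrl as each table lists it. These 4 values had overlapping intervals. ZCCHC8 of the second batch had 9.90 RPM (7.35 to 13.1) in siCtrl and 10.6 (7.72 to 14.2) in siStar-PAP, with no difference beyond counting error. In the 7-library fit its log2 change was -1.05 in siPAPα, -0.93 in the library labelled siPAPγ and -1.20 (SE 0.59) in siPAPα+γ, with adjusted p = 0.369, 0.623 and 0.242 by edgeR, and none passed. Nearly all ZCCHC8 reads ended at its main PAS. A distal site, 122956409, rose from 1.83% to 10.3% in siPAPα (adjusted p = 0.00228 by Fisher's exact test) and from 1.76% to 7.78% in siPAPα+γ (adjusted p = 0.0389), with RED of 2.62 and 2.18.

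RBM7 and ZFC3H1 were near the floor of these libraries. RBM7 had 12 reads in siCtrl and, after KD, 13 in siStar-PAP, 40 in siPAPα, 1 in the library labelled siPAPγ and 22 in siPAPα+γ, and 0 and 3 in the second batch. Its 1.59 RPM (1.14 to 2.17) in siPAPα overlapped the siCtrl value of 1.05 (0.543 to 1.83), and the edgeR log2 change was 1.43 (SE 1.72, adjusted p = 0.797). ZFC3H1 had 7 reads in siCtrl and, after KD, 2 in siStar-PAP, 14 in siPAPα, 4 in the library labelled siPAPγ and 0 in siPAPα+γ, where 3 reads would be 0.160 RPM. At this depth no difference in ZFC3H1 was detectable. The filter on low counts left it out of the main gene-level fits, and with no filter all 10 members were fitted and 0 were called.

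Early ends held few reads of the 10 genes summed. Intronic and upstream-exon PASs took between 0 and 0.351% of all member reads in a library, the highest being siCtrl as listed in the double KD table. ZFC3H1 was the exception, with 9 of its 14 reads in siPAPα at 2 intronic PASs (5 at 72007910 and 4 at 72034712) and 0 of 7 in siCtrl, too few reads to test. With Fisher's exact test on upstream-region reads against the other reads of the gene, 0 of 1, 0 of 1, 0 of 1 and 0 of 2 members were called in siStar-PAP, siPAPα, the library labelled siPAPγ and siPAPα+γ, against 44.8%, 46.5%, 32.5% and 42.1% of all genes, and none could be tested in the second batch (12.4%). DIS3 had intronic reads in siCtrl (5 of 82) and in siPAPα (5 of 114), and 0 in siStar-PAP and in the library labelled siPAPγ. In the double KD table ZCCHC8 had 8 of 227 in siCtrl and 0 of 90 (adjusted p = 0.190).

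The only test of PAS use that has a second library per condition compared siStar-PAP with siCtrl over PASs listed at the same position in both batches (edgeR's diffSpliceDGE). It reached 5 PASs of MPHOSPH6 and SKIV2L2 and called 0, with 0 at an unadjusted p below 0.05. Of all 7578 PASs, 0.0396% were called.

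Antisense transcripts that start upstream of a promoter are a class of RNA that the exosome degrades, and such a PAS was listed for 3 of the 10 genes. The one opposite EXOSC10 (chr1, plus strand, position 11162157) had 54 reads in siCtrl (4.73 RPM, 3.55 to 6.17), and 25, 64, 27 and 44 reads in siStar-PAP, siPAPα, the library labelled siPAPγ and siPAPα+γ (1.51, 2.55, 1.82 and 2.34 RPM). All 4 KD intervals lay below the siCtrl interval. The second batch gave it 2 and 6 reads. For MPHOSPH6 such a PAS was listed in the second batch only (14 reads in siCtrl and 2 in siStar-PAP), and for ZCCHC8 a PAS at 122986466 in the batch 1 and double KD tables and another at 122987816 in the second batch, each with at most 8 reads in any library. These reads were not tested.

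The other genes of the pathway were taken from a fixed list of 27 symbols (the remaining exosome subunits, other adaptors and the cytoplasmic Ski complex), of which 25 could be tested. Over both batches of siStar-PAP, where 2.31% of all genes passed, 0 fell and 1 rose, HBS1L, a translational GTPase-like partner of the Ski complex, with a log2 change of 1.54 (SE 0.37, adjusted p = 0.0272 by edgeR). In siPAPα (background 5.73%) 1 fell, EXOSC4, a ring subunit (-1.89, SE 0.48, adjusted p = 0.00437), and 2 rose, HBS1L (1.66, SE 0.47, adjusted p = 0.0139) and the ring subunit EXOSC5 (1.31, SE 0.44, adjusted p = 0.0471). In the library labelled siPAPγ (background 2.37%) EXOSC4 fell (-1.75, SE 0.48, adjusted p = 0.0220) and 0 rose. In siPAPα+γ (background 7.1%) EXOSC4 (-1.56, adjusted p = 0.0202) and WDR61, a WD-repeat subunit of the Ski complex (-1.59, SE 0.54, adjusted p = 0.0489), fell and 0 rose. HBS1L passed in 6 of 12 settings run for siStar-PAP and 5 of 8 for siPAPα, EXOSC5 in 2 of 8, WDR61 in 4 of 7, and EXOSC4 in 7 of 8, 7 of 8 and 6 of 7. With PASS totals in siStar-PAP, and with DESeq2 or PASS totals in siPAPα, 0 of the 25 rose. The median log2 change of the 25 was 0.19, 0.08, 0.07 and -0.13, against 0.00, 0.06, 0.02 and 0.00 over all genes. Of the genes that did not pass, the lowest were the poly(A) polymerase PAPD5, at -0.85 (adjusted p = 0.566) in siStar-PAP and -1.71 (adjusted p = 0.189) in siPAPα+γ, and ZCCHC7, a subunit of the TRAMP adaptor, at -5.14 (SE 4.18, adjusted p = 0.773) in the library labelled siPAPγ. The highest there was PABPN1 at 1.45 (adjusted p = 0.330), and in siPAPα+γ HBS1L at 1.36 (adjusted p = 0.0535). ZCCHC7 had 3 reads in the first-batch siCtrl and 0 in the library labelled siPAPγ, and PABPN1 had 5 and 34. Their values in that library thus rest on few reads.

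The EXOSC4 and WDR61 calls come with a feature of their sites. In siCtrl, 96.7% of the EXOSC4 reads ended at 1 intronic PAS. Its level was 297 RPM in siCtrl and, after KD, 206 in siStar-PAP, 67.8 in siPAPα, 72.9 in the library labelled siPAPγ and 79.7 in siPAPα+γ. The only last-exon PAS listed had 10.2, 6.10, 8.57, 11.5 and 7.77 RPM in the same order. The lower level was thus at the intronic end, and the last-exon level stayed between 6.10 and 11.5 RPM. In the second batch the intronic site had 629 RPM in siCtrl and 261 in siStar-PAP. The WDR61 call depends on which sites a table lists: over PASs found in all 3 tables the log2 change was -0.21 (SE 0.66, adjusted p = 0.912), because 2 of its 3 last-exon sites are not in the double KD table. Under that alternative EXOSC5 did not pass either (adjusted p = 0.0767), and EXOSC4 and HBS1L did.

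**Figure D5:**
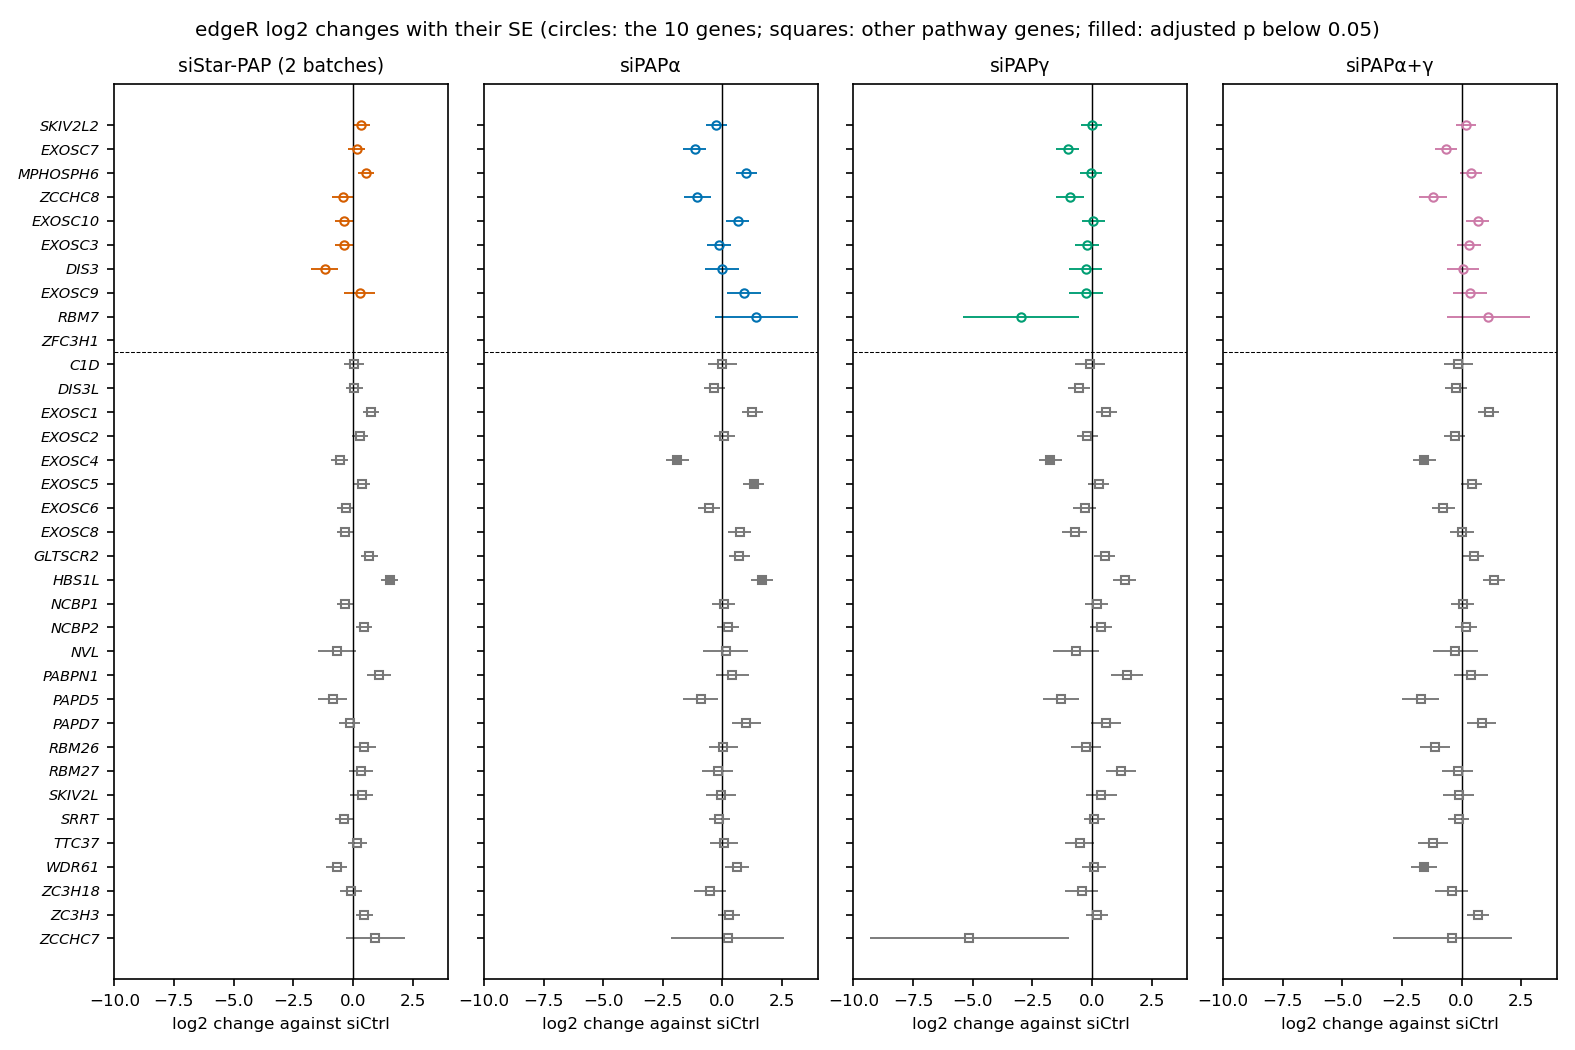
Log2 change with its standard error from the edgeR fits for the members (circles) and the 25 other pathway genes (squares), 1 panel per KD; filled symbols have an adjusted p below 0.05. No circle is filled, and the filled squares are HBS1L, EXOSC4, EXOSC5 and WDR61.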

How the data were processed

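HEK293 poly(A)+ RNA ends were sequenced with 3′READS (first batch, and the double KD as its label states) or 3′READS+ (second batch). Mapping by the authors used Bowtie2 in local mode and the hg19 genome (the Bowtie2 version is not given in the sources used here). They kept uniquely mapped reads with MAPQ over 10 and at least 2 untemplated Ts as PASS reads. They clustered PASs within 24 nt and required at least 2 PASS reads and a share over 5% of the gene in 1 sample. The deposited values are whole-number counts of PASS reads per PAS and library, in 3 tables.

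Here sense-strand counts were summed per gene. RPM used the library totals that the study states. The members and lists were chosen with earlier results of these data known. All 10 members were named, together with pathway genes past the test and those with the highest and lowest change. PASs were named with at least 5% of a gene's reads in any library or a call. Ratios of single libraries (over 2-fold, more than 50 reads in the pair) have no test, since each is 1 library against 1. PAS shares (genes with at least 20 reads in both libraries), last-exon pairs and upstream-region shares used two-sided Fisher's exact tests, in place of the study's program, which was not used here. Gene levels were fitted with edgeR 4.0.16 in R 4.3.3 (TMM, filterByExpr, glmQLFTest, batch as a block), with 4 libraries for siStar-PAP and all 7 libraries for the other KDs. There the double KD stood with the first batch and siCtrl counts came from the batch 1 table. Its table repeats that library, with 33941 of 34060 shared PASs identical, and 26 of 26 of the members. Calls had a Benjamini-Hochberg adjusted p below 0.05 over all features tested.

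The batch numbers pair the libraries, because the labels name the second batch. The batch difference in siCtrl and in siStar-PAP had r = 0.8592 over 11878 genes, which are not independent replicates. Alternatives were TMM-scaled ratios, PASS totals as library sizes, DESeq2 1.42.0, no filter, no block, other read minimums, other PAS pairs, PASs within 50 nt merged and leaving out replicates. Counting only PASs listed in all 3 tables, and leaving out the double KD library, were chosen after seeing the data. The scripts were tested on simulated data.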

Additional observations from a re-analysis of the deposited data

How the results depend on the processing

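No member passed the gene-level test under any alternative run, but the direction and the counts depend on scaling and batch, and the cause was not tested. Of the results that answer a comparison, 152 of the alternative values stayed as reported and 34 moved. Of the values of single genes and PASs, 446 stayed, 56 moved and 38 were marked as reversed. A ratio of single libraries was marked as reversed only if its main value was past 2-fold. Smaller ratios that changed sign counted as moved or stayed, so more values changed sign than these 38. Few reads limit RBM7, ZFC3H1 and the second batch.

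Members past 2-fold: in siStar-PAP of the first batch 2 of 8 were down with TMM factors and 2 of 8 relative to the median (4 as reported). The shares of all genes were 12.1% and 13.4%. In siPAPα 2 of 9 were up with TMM factors (0), against 16.9% of all genes. In the library labelled siPAPγ 4 of 10 were down with more than 10 reads in the pair (2), against 25.4%. In siPAPα+γ 1 of 8 was down with TMM factors (2), against 13.3%, EXOSC7 no longer among them. Member PASs with changed use: 4 in the first-batch siStar-PAP library with at least 100 reads (7), 6 in siPAPα+γ with a change of at least 10 points and 7 with at least 100 reads (12), and 2 in the second batch with at least 100 reads (1). The minimum of 100 reads also takes member PASs out of the test. These counts, and those of pairs below, are given without the share over all features and are no result about the members. Taking the most proximal and the most distal PAS as the pair, 0 were up and 1 down in the first-batch siStar-PAP library (1 and 0), 2 up and 2 down in siPAPα (4 and 1), 1 up and 1 down in the library labelled siPAPγ (2 and 0), and 1 down in siPAPα+γ (2). RED then turned for MPHOSPH6 in siPAPα (0.47 to -4.14, called both ways) and for EXOSC3 in siStar-PAP (1.88 to -1.57) and the library labelled siPAPγ (1.88 to -1.20), where EXOSC3 lost its call. With at least 100 reads of the pair, 0 were down in siPAPα and 0 in siPAPα+γ, because EXOSC9 and DIS3 then had too few reads to be tested. DIS3 also had too few reads in siPAPα+γ for a test of its most proximal against its most distal PAS.

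Genes called in siStar-PAP over both batches (274 as reported) were 76 with PASS totals, 444 with no filter, 450 in the 7-library fit and 477 over PASs listed in all 3 tables, and 0 to 0 when 1 library was left out with no block. In siPAPα DESeq2 called 459 (789), in the library labelled siPAPγ 196 (326), and in siPAPα+γ 544 (978), where 554 were called over PASs in all 3 tables. The split of all called genes into down and up differed between settings: 128 and 146 as reported, 109 and 145 with RLE factors, 63 and 13 with PASS totals and 83 and 200 with DESeq2 in siStar-PAP, and in siPAPα 342 and 447 as reported, 375 and 419 with RLE factors, 520 and 212 with PASS totals and 205 and 254 with DESeq2. In the same order they were 142 and 184, 156 and 183, 255 and 72, and 89 and 107 in the library labelled siPAPγ, and 522 and 456, 541 and 461, 924 and 174, and 283 and 261 in siPAPα+γ.

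Without the replicate block, which treats the pairing by batch as absent, 0 genes were called in each of the 4 fits. The sign of the log2 change then turned for EXOSC10 (-0.44) and SKIV2L2 (0.55) in siPAPα, for EXOSC10 (-1.02), EXOSC9 (0.27) and SKIV2L2 (0.79) in the library labelled siPAPγ, for DIS3 (-0.54), EXOSC10 (-0.40) and EXOSC3 (-0.60) in siPAPα+γ, and for the use of the MPHOSPH6 PAS 82181876 (0.073). No member call changed with the block.

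Other gene-level log2 changes that turned were all of members without a call. With PASS totals they were EXOSC7 (-0.19), EXOSC9 (-0.10) and SKIV2L2 (-0.0056) in siStar-PAP, EXOSC10 (-0.27) in the library labelled siPAPγ, and DIS3 (-0.41), EXOSC3 (-0.16), EXOSC9 (-0.13), MPHOSPH6 (-0.067) and SKIV2L2 (-0.28) in siPAPα+γ. With no filter DIS3 was at -0.010 in siPAPα+γ. Over PASs listed in all 3 tables they were EXOSC9 (-0.20) in siStar-PAP, DIS3 (0.0043) and EXOSC9 (-0.99) in siPAPα, MPHOSPH6 (0.028) in the library labelled siPAPγ and EXOSC9 (-3.10) in siPAPα+γ. Leaving out a batch gave log2 changes in siStar-PAP from -0.89 to 0.14 for EXOSC10, -0.37 to 0.69 for EXOSC7 and -0.14 to 0.52 for EXOSC9, and from -0.49 to 0.16 for the use of the MPHOSPH6 PAS 82181876. Leaving out 1 library with no block gave -1.75 to 0.79 for EXOSC10 (without siStar-PAP of the first batch 0.68), -1.49 to 0.54 for EXOSC3 (0.46), -0.48 to 0.80 for EXOSC7, -0.70 to 0.95 for EXOSC9, -2.22 to 3.06 for SKIV2L2 (without siCtrl of the second batch -0.66) and -1.08 to 0.29 for ZCCHC8 (without siCtrl of the first batch 0.024). DIS3 stayed below 0 throughout these (-2.18 to -0.25).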
